A study of Equus caballus with 25 samples.

Results

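Transcripts of bronchoalveolar lavage (BAL) cells were compared between horses with severe equine asthma (SEA, the disease labelled RAO by the submitters) and clinically healthy controls (CTRL). The samples were taken by their diagnosis label alone, which gave 8 SEA and 7 CTRL arrays, 15 of the 25 arrays of the series; each array held the RNA of 1 horse. No treatment, genotype, sex or age is given in the labels. By the study's methods the SEA horses were older than the controls and mostly saddle horses, whereas the controls were all standardbreds, so age and breed cannot be told apart from disease. Both sexes were present in each group, and cytology was dominated by neutrophils in SEA and by macrophages in CTRL. RNA came from the whole lavage pellet, a mixture of cell types, and was hybridized to a 1-color custom Agilent array of 7238 equine transcripts, each printed as 2 spots of a 60-base probe and weighted by design towards immune and mucosal genes.

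Severe equine asthma is a chronic disease of stabled adult horses in which inhaled dust and mould provoke airway narrowing, mucus and an influx of neutrophils. Neutrophils are short-lived phagocytes that kill with oxidants and stored granule proteins and carry receptors for complement, cytokines and immunoglobulin. In healthy lavage the commonest cell is the alveolar macrophage, a long-lived resident phagocyte, with lymphocytes and a few epithelial cells shed from ciliated and secretory airway lining.

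Of 4930 transcripts bright enough to be tested, 1612 (32.7%) differed between SEA and CTRL in limma (adjusted p under 0.1, change of 1.5-fold or more). The 791 transcripts higher in SEA (16.0%) had a median log2 fold change of 1.11, and the 821 lower in SEA (16.7%) a median of -1.27, against -0.01 over all tested transcripts. Falls beyond 2 log2 units were more numerous than such rises, at 156 transcripts against 87. In 139 transcripts (2.82%) no SEA horse overlapped any CTRL horse, 77 of them higher and 62 lower in SEA. The spread among horses was wider in SEA for the median transcript, though not for every gene list (dendritic cell means, SD 0.32 in SEA and 0.54 in CTRL). The median SD over transcripts that fell was 0.83 in SEA and 0.65 in CTRL, and over transcripts not called it was 0.51 and 0.42.

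**Figure D1:**
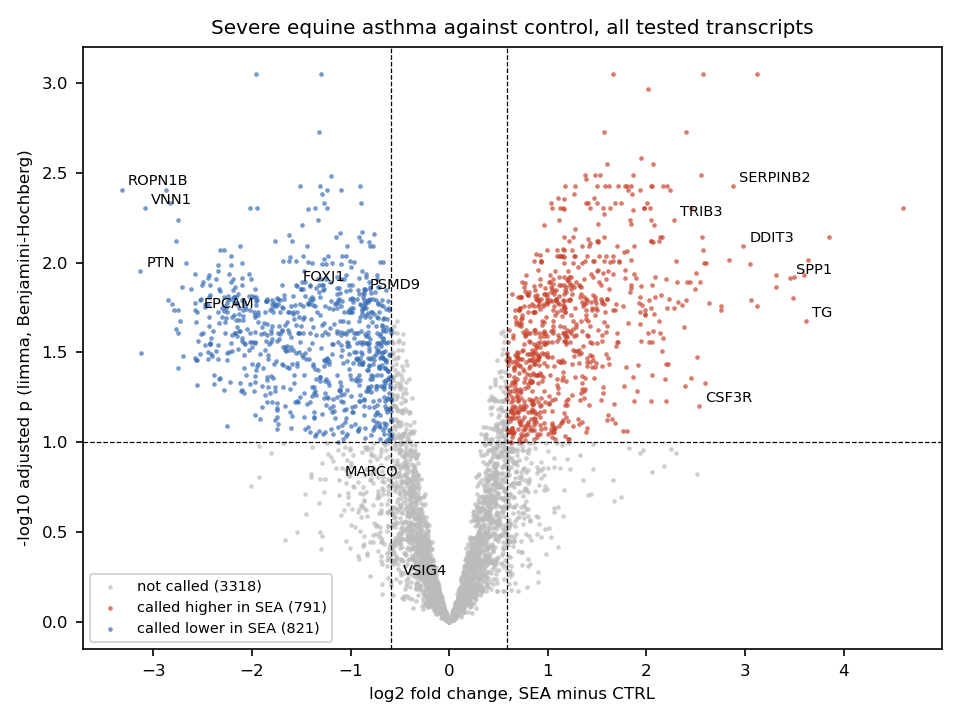
Each point is 1 of 4930 tested transcripts, with its log2 fold change (SEA minus CTRL) on the x axis and the negative log10 of its limma adjusted p on the y axis; dashed lines mark the adjusted p of 0.1 and the fold change of 1.5. Calls were near evenly split (791 higher, 821 lower), with more transcripts far to the left than far to the right, and the macrophage markers MARCO and VSIG4 lay among the transcripts not called.

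Gene names came from the symbol column of the study's supplementary tables, which name transcripts that the study itself called on these same horses. Of 1684 tested transcripts with a symbol, 711 were called higher (42.2%) and 742 lower (44.1%), while 159 of 3246 without a symbol were called (4.9%). The median log2 fold change of the 1684 was -0.38. The count of calls in any gene list is therefore no independent evidence that the list changed. List medians come from the same selected transcripts and are no independent evidence either. The lists below are read as a description of the direction of their members, with -0.38 as the value to set their medians against. They hold only the symbols so named, for instance 10 of 23 neutrophil surface receptors and 15 of 37 interferon-stimulated genes. No median of the 30 lists with at least 3 tested transcripts changed sign under the other scalings, filters and blocks run, but 15 moved by more than the SD among controls after normexp background correction, and 2 changed sign when identical probes were counted once. The normexp median is given beside each list below that it moved so, and beside a few others. Some fold changes are measured against background. Of the genes below that fell, SMAD9 was well above background on 3 of 8 SEA arrays, PTPRZ1 and ERBB3 on 5, and AQP4, TSPAN15 and CDH1 on 6. Of those that rose, PLXNC1 and CTLA4 were so on 4 of 7 CTRL arrays, and CLEC5A, CD1A, FCRL1, PRG3 and IL18R1 on 5. The sizes of these changes depend on how background is handled. Some genes called under every setting also changed by less in at least 1 of them. Their smallest log2 fold changes were -1.32 for PTN, -1.26 for SLC27A2, -1.82 for VNN1, -1.04 for FZD6 and -0.92 for CTSE. For CHST4, FOXA2, TRIB3 and CCR7 they were -1.62, -0.93, 1.1 and 0.91. Of the genes called below, CSF3R, FCAR, PLXNC1, CSF2RB, CD1A, CTLA4, GZMB, IGLV3-32, PRG3, BPIFB2, NKX2-1, ROBO4, GHR, DDX58, CXCL10, CIITA, CD74, PTPRZ1, TSPAN14, TSPAN15, SMAD9, AREG, TGFA, ERBB3, PRDX2, AHR, FMO2, PPARGC1B, LAMP3, ITGA2B and CDH1 were not called under normexp.

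Markers of the lavage cells were examined first. Of 11 tested transcripts of neutrophil surface receptors, 9 were higher in SEA and none lower, with a median log2 fold change of 1.9. CSF3R, the receptor for granulocyte colony-stimulating factor that drives neutrophil production, ranged from 5.96 to 13.01 normalized log2 units in SEA (median 10.9) and from 5.69 to 10.57 in CTRL (median 7.4). The groups overlapped, and the log2 fold change was 2.53 ± 0.97 (SE, 8 against 7 horses, adjusted p = 0.0633). It was no longer called without CTRL horse 1, 4, 5 or 6 or SEA horse 2, 6 or 7, where the adjusted p reached 0.138. FCAR, the IgA receptor of neutrophils and monocytes, ranged from 9.96 to 15.09 in SEA (median 13.07) and from 9.58 to 13.37 in CTRL (median 10.72), again with overlap and a log2 fold change of 1.9 ± 0.69 (adjusted p = 0.0517, and 0.116 without CTRL horse 1). The semaphorin receptor PLXNC1 rose more evenly, by 1.93 ± 0.34 (adjusted p = 0.00393), and all 8 SEA horses exceeded the CTRL mean, but after normexp background correction its change was 0.42 and not called. The probes of the defining markers are given 5′ to 3′ as in the array files, in lower case, for CSF3R, FCAR, the macrophage receptor MARCO, the ciliated-cell regulator FOXJ1 and the epithelial adhesion molecule EPCAM.
CSF3R: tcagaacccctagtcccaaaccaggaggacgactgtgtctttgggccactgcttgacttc
FCAR: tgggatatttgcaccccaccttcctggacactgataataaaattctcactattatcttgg
MARCO: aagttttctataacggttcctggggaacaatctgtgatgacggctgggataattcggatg
FOXJ1: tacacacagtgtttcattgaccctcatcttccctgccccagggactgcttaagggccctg
EPCAM: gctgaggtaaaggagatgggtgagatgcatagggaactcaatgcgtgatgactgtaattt

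SEA horse 1 had the lowest neutrophil receptor mean of the SEA horses, although the study's cell count for this horse was mostly neutrophils. The mean of SEA horse 1 over this list lay -0.29 log2 units from the CTRL mean, while the other SEA horses lay between 1.45 and 3.22 above the CTRL mean and the controls between -1.34 and 1.16. Dixon's criterion, described below, did not set this list mean apart. The CSF3R value of 5.96 and the FCAR value of 9.96 were both from this horse. The same horse had the lowest ciliated-cell mean of all 15, at -5.12, and its recruited macrophage and dendritic cell lists were nonetheless 1.04 and 1.34 above the CTRL mean. Without SEA horse 1, 1677 transcripts were called, 834 higher and 843 lower, the neutrophil receptor list had 10 of 11 transcripts higher with a median of 1.92, and CSF3R differed by 3.19. The cause of the low receptor values was not tested.

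The resident macrophage list did not move down as a whole. Only 7 of its 21 symbols were named on the array, so it covers a small part of the resident markers. Of its 10 tested transcripts 5, from 3 genes, were higher in SEA, 1 was lower and 4 were not called. The median was 0.66, and its direction rests on those 3 genes. The median was 0.35 under normexp and 0.49 with each probe counted once. MARCO, a scavenger receptor of resident alveolar macrophages, ranged from 9.75 to 14.22 in SEA (median 13.28) and from 12.35 to 14.99 in CTRL (median 14.02), and its log2 fold change of -1.12 ± 0.58 did not pass the test (adjusted p = 0.162, and -0.68 without SEA horse 8, the lowest). VSIG4, a complement receptor of resident macrophages, differed by -0.54 ± 0.65 (adjusted p = 0.578, and -0.08 without SEA horse 6, the lowest), with SEA values of 3.4 to 7.67 and CTRL values of 4.86 to 9.26. The rises were in ITGAX, the CD11c integrin chain (1.55 ± 0.41), CSF2RB, the shared receptor chain for GM-CSF, IL-3 and IL-5 (1.47 ± 0.33), and CD68. The fall was in TYRO3, a receptor kinase for apoptotic cells (-1.95 ± 0.51, adjusted p = 0.0162), with every SEA horse below the CTRL mean and a change of -0.66 under normexp, where CSF2RB (0.52) was not called. In a mixed pellet, fewer cells of a type and less RNA per cell cannot be told apart by these arrays, and apart from the remark on SEA horse 1 the study's cell counts of single horses were not used here.

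Markers of recruited monocytes and macrophages were higher. Of 18 tested transcripts 15 rose and none fell, with a median of 1.35. SPP1, osteopontin, a secreted adhesive protein of inflammatory macrophages, ranged from 10.87 to 16.2 in SEA (median 14.31) and from 9.11 to 13.39 in CTRL (median 10.41). It rose by 3.46 ± 0.81 (adjusted p = 0.0123), and only the lowest SEA horses overlapped the highest controls. OLR1, the receptor for oxidized low-density lipoprotein, rose by 2.21 ± 0.6 (adjusted p = 0.0179). The list mean of every SEA horse, 1.03 to 2.26 above the CTRL mean, exceeded that of every control, the highest of which was at 0.69. The SPP1 probe is shown because this transcript gave the largest rise of the list.
SPP1: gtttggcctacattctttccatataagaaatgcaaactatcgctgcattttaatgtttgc

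Dendritic cell markers rose, and lymphocyte markers were mixed. All 9 tested dendritic cell transcripts were higher (median 1.35, normexp 0.3), among them CCR7, the receptor that guides dendritic cells to lymph nodes (1.83 ± 0.46, adjusted p = 0.0145), and CD1A, which presents lipids to T cells (1.55 ± 0.47, adjusted p = 0.0253). Of 14 transcripts of T and NK cells 9 rose and 1 fell (median 0.96, normexp 0.15). CTLA4, the T cell inhibitory receptor, rose by 1.43 ± 0.41 (adjusted p = 0.0225) and the orphan receptor GPR171 by 1.4 ± 0.42. The CTLA4 call was lost under normexp and 75th percentile scaling. The B cell and plasma cell list split. FCRL1 (1.93 ± 0.51), a receptor-like protein of B cells, and CD38 (1.29 ± 0.39), an ectoenzyme of plasma cells and activated leukocytes, rose. Within the 4 array slides CD38 differed by -0.14, 1.65, 2.03 and -0.19, so it was higher in SEA on only 2 of them. A transcript of IGLV3-32, a lambda light chain segment, fell by 1.41 ± 0.34, while another of the same symbol was not called (-1.2 ± 0.56, adjusted p = 0.121). In all 9 of 13 transcripts were not called, and the list median was -0.62. The 1 named transcript of the mast cell and eosinophil list, PRG3, a homolog of eosinophil major basic protein, rose by 1.77 ± 0.64 (adjusted p = 0.0489). It was not called under normexp, in the rank sum test or without CTRL horse 4 (limma adjusted p = 0.109). No erythrocyte marker carried a symbol. Of 3 tested fibroblast and endothelial transcripts (median -1.1, normexp -0.37) THY1 (-1.92 ± 0.98) and VWF (-1.1 ± 0.7), chosen after their values were seen, did not pass the test. Without SEA horse 1 the median was -0.69 and 1 of the 3 was called lower. ROBO4, an endothelial guidance receptor, rose by 0.71 ± 0.24, but was not called under normexp (0.14), 75th percentile scaling or the replicate block.

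Granzyme B, a serine protease of cytotoxic lymphocytes, was the only symbol with calls in both directions among 47 symbols with more than 1 distinct tested probe. Its 4 probes have different sequences. Transcript ENSECAT00000009819 rose by 0.97 ± 0.3 (adjusted p = 0.0285), from a CTRL mean of 5.26 to 6.23 in SEA. Transcript ENSECAT00000018054 fell by 1.35 ± 0.5 (adjusted p = 0.0544), from 11.93 to 10.59, and was not called without CTRL horse 2 (adjusted p = 0.104) or under normexp, so the opposite calls rest on it. The probe of ENSECAT00000021962 differs from the latter at 3 of 60 positions, shown in capitals, and its log2 fold change of -0.7 ± 0.49 did not pass the test (adjusted p = 0.315), nor did that of ENSECAT00000017008 (-1.13 ± 0.51, adjusted p = 0.111). Positions that differ between the other pairs numbered from 35 to 48, without gaps. Whether the probes read 1 gene or related granzymes was not tested.
ENSECAT00000009819: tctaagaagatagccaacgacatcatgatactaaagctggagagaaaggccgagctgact
ENSECAT00000018054: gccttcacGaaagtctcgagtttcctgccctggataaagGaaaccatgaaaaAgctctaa
ENSECAT00000021962: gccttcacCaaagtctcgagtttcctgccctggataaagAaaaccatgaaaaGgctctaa

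**Figure D2:**
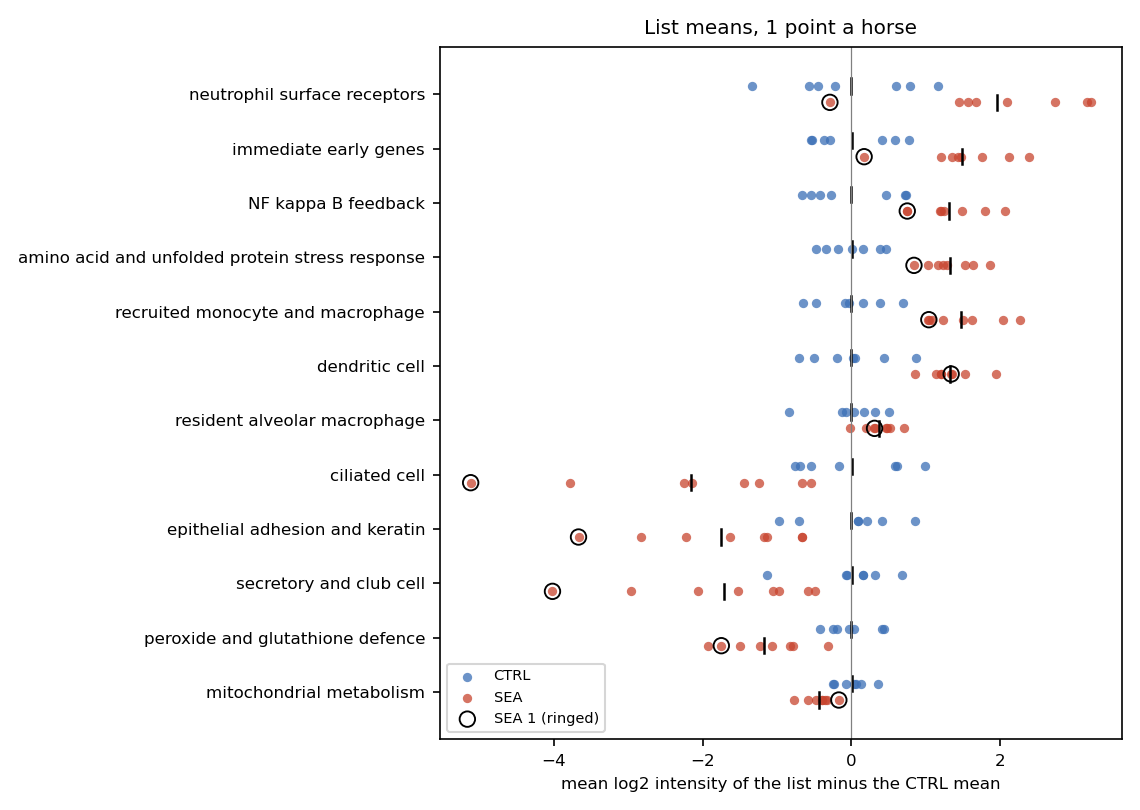
The mean normalized log2 intensity of each gene list is drawn for each horse as its difference from the CTRL mean, with CTRL in blue, SEA in red, group means as black bars and SEA horse 1 ringed. SEA horse 1 lies among the controls for neutrophil receptors (-0.29) and immediate early genes (0.17) and farthest left for ciliated cells (-5.12), while the stress response list of every SEA horse lies right of every control.

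Most named transcripts of phagocyte oxidant production and innate sensing were higher. All 10 tested transcripts of the phagocyte oxidase and its activators rose, with a median of 1.16. VAV3, a signalling protein downstream of leukocyte receptors, ranged from 9.19 to 11.31 in SEA (median 10.04) and from 7.15 to 9.12 in CTRL (median 8.36), with no overlap, and rose by 1.85 ± 0.36 (adjusted p = 0.00608). The adhesion kinase PTK2B rose by 1.51 ± 0.35. Of 16 innate sensors and adaptors 15 rose, with a median of 1.54. CLEC5A, a lectin receptor that signals through DAP12, ranged from 4.89 to 9.05 in SEA (median 7.95) and from 1.98 to 7.04 in CTRL (median 4.47), a rise of 3.32 ± 0.77 (adjusted p = 0.0117). NLRP12, a leukocyte NOD-like receptor, rose by 2.39 ± 0.7. Granule proteins were represented by only 2 tested transcripts, of which 1, of a gene the study's text names, was higher. The other, LTF, lactoferrin, made both by neutrophil precursors and by airway glands, fell by 2.1 ± 0.76 (adjusted p = 0.0511, and 0.103 without CTRL horse 4, where it was not called). SEA horse 1 was at 4.1 and the other SEA horses from 7.89 to 10.82.

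Transcripts of rapid signalling responses rose together. All 18 tested immediate early transcripts and all 18 of the NF kappa B feedback list were called higher, with medians of 1.39 and 1.34 (normexp 1.03 and 0.78). CSRNP1, a nuclear protein induced within minutes of stimulation, rose by 2.5 ± 0.62 (adjusted p = 0.0141), and the orphan nuclear receptor NR4A2 by 2.14 ± 0.64 (adjusted p = 0.0248). TNFAIP3, the ubiquitin-editing enzyme A20 that shuts down NF kappa B signalling, rose by 2.4 ± 0.63 (adjusted p = 0.0161), and NFKBID, a nuclear inhibitor of the same factor, by 2.05 ± 0.42 (adjusted p = 0.00754). Within the slide that held 1 SEA and 2 CTRL arrays the immediate early list differed by only 0.05, against 1.83, 1.98 and 0.79 on the others; that SEA array was horse 1.

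The stress response to amino acid shortage and unfolded protein was among the most even gains. Of 12 tested transcripts 11 rose and none fell, with a median of 1.1 (normexp 0.67). DDIT3, the transcription factor CHOP induced when protein folding fails, ranged from 8.61 to 13.43 in SEA (median 11.99) and from 7.52 to 10.16 in CTRL (median 8.21). It rose by 2.98 ± 0.63 (adjusted p = 0.00812), and all but 1 SEA horse exceeded every control. TRIB3, a pseudokinase target of the same pathway, ranged from 5.61 to 9.01 in SEA (median 7.62) and from 4.35 to 6.29 in CTRL (median 5.49) and rose by 2.28 ± 0.45 (adjusted p = 0.00579). The list mean lay 0.84 to 1.86 above the CTRL mean in SEA horses and reached at most 0.47 in controls, so the groups did not overlap, and SEA horse 1, low for neutrophil receptors, was at 0.84. This was the case for 4 of the 30 lists with at least 3 tested transcripts (phagocyte oxidase, recruited macrophages, NF kappa B feedback and this list).
DDIT3: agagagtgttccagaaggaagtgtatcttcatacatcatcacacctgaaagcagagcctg
TRIB3: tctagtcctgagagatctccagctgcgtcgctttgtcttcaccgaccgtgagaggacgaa

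Receptors and soluble mediators followed. Of 24 tested transcripts of cytokine and growth factor receptors 20 rose and 2 fell (median 1.23, normexp 0.58). The largest rise in the main fit was in IL18R1, a chain of the IL-18 receptor (2.75 ± 0.74, adjusted p = 0.0175). Its smallest value over the other settings was 0.85, below the smallest for CSF3R (2.05). The growth hormone receptor GHR fell by 1.44 ± 0.38 (adjusted p = 0.0171, normexp -0.34 and not called). Of 20 chemokine and chemokine receptor transcripts 15 rose and 3 fell (median 1.65). On the slide of SEA horse 1 the cytokine and growth factor receptor list differed by 0 and the chemokine list by 0.01. On the other slides both differed by 0.83 or more. CCRL2, a chemerin-binding receptor of activated neutrophils and macrophages, rose by 2.54 ± 0.61 (adjusted p = 0.0129). CXCL17, a chemokine-like product of airway mucosa, ranged from 8.91 to 13.81 in SEA (median 12.33) and from 13.21 to 15.23 in CTRL (median 14.14) and fell by 2.26 ± 0.62 (adjusted p = 0.0179). In the EGF family the ligands AREG (1.54 ± 0.58, adjusted p = 0.0586, not called under normexp or the rank sum test or in 4 leave-one-out fits) and TGFA (1.39 ± 0.36, adjusted p = 0.0161, normexp 0.42 and not called) rose, with HBEGF, and the receptor ERBB3 fell by 1.61 ± 0.49 (adjusted p = 0.0261), a call lost under normexp (-0.27) and the replicate block.

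The plasminogen and coagulation list moved both ways, with 5 of 12 transcripts higher and 4 lower. Of the 4, 3 are ITGA2B transcripts read by 1 shared probe. The median of -0.81 (normexp -0.18) became 0.09 with each probe counted once, and the mean of the members differed between the groups by 0.02, so the list gives no direction. SERPINB2, an inhibitor of plasminogen activators made by activated monocytes, ranged from 6.99 to 10.54 in SEA (median 8.83) and from 4.13 to 7.59 in CTRL (median 5.77) and rose by 2.88 ± 0.49 (adjusted p = 0.00376). PLAUR, the urokinase receptor, rose by 2.41 ± 0.58 (adjusted p = 0.0128). ITGA2B, the platelet fibrinogen receptor chain, fell by 1.16 ± 0.34 (adjusted p = 0.0221).
SERPINB2: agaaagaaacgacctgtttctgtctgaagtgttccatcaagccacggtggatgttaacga

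Several of the largest rises fell in none of the lists. The transcript carrying the symbol TG, thyroglobulin, which is known as the precursor of thyroid hormone, ranged from 7.09 to 15.65 in SEA (median 13.51) and from 7.12 to 11.37 in CTRL (median 8.84), a rise of 3.62 ± 1.04 (adjusted p = 0.0212). All SEA horses except horse 1, which was below every control, exceeded every control. MBP, myelin basic protein, whose locus also encodes proteins of leukocytes, ranged from 5.56 to 12.68 in SEA (median 10.27) and from 5.6 to 7.82 in CTRL (median 6.55), a rise of 3.12 ± 0.84 (adjusted p = 0.0175), again with horse 1 lowest. Both probes are printed because their symbols are those of other tissues, and their place in the genome was not analysed here.
TG: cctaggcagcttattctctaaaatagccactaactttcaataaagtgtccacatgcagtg
MBP: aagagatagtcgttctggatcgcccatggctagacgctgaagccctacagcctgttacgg
Others were CASS4, a scaffold of integrin signalling (3.49 ± 0.9), TBC1D9, a Rab GTPase regulator (3.06 ± 0.69), and P2RY14, a receptor for UDP-sugars (2.84 ± 0.62, adjusted p = 0.00969).

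Epithelial lists had low medians. The study counted few exfoliated epithelial cells in either group and no fewer in SEA, and the cause of the low medians was not tested. Of 23 tested ciliated cell transcripts 22 fell and none rose, with a median of -2.35, the lowest of any list. ROPN1B, a protein of the fibrous sheath and cilia, ranged from 6.01 to 10.99 in SEA (median 9.26) and from 11.33 to 13.42 in CTRL (median 12.09), without overlap, and fell by 3.32 ± 0.59 (adjusted p = 0.00393). RSPH4A, a radial spoke protein needed for ciliary beating, fell by 3.13 ± 1 (adjusted p = 0.0318), with SEA values from 0.66 to 9.32. FOXJ1, the master regulator of motile cilia, ranged from 6.92 to 9.26 in SEA (median 8.35) and from 9.02 to 10.97 in CTRL (median 9.59) and fell by 1.55 ± 0.38 (adjusted p = 0.0133). Every SEA horse lay below the CTRL mean of each of these genes. Without SEA horse 1, 21 of the 23 still fell, with a median of -1.85.
ROPN1B: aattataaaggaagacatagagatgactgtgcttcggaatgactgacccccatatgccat

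Secretory, adhesive and alveolar epithelial markers moved the same way. Of 29 tested transcripts of epithelial adhesion and keratins 25 fell and none rose (median -2.01, normexp -0.75). EPCAM ranged from 5.36 to 10.9 in SEA (median 9.98) and from 10.31 to 13.07 in CTRL (median 11.96) and fell by 2.55 ± 0.71 (adjusted p = 0.019). OVOL2, a transcription factor that maintains epithelial identity, fell by 2.44 ± 0.66, and CDH1, E-cadherin of adherens junctions, by 1.53 ± 0.46 (adjusted p = 0.0248), the latter not called under normexp (-0.28) or the replicate block. Of 8 secretory and club cell transcripts 6 fell and 1 rose (median -2.13, normexp -0.93). CHST4, a sulfotransferase of mucin-type glycans, fell by 2.81 ± 0.75 (adjusted p = 0.0171) and the airway transcription factor FOXA2 by 2.27 ± 0.65, whereas BPIFB2, of the BPI-fold family of secreted proteins, rose by 0.82 ± 0.24 (adjusted p = 0.0248). All 3 alveolar epithelial transcripts fell (median -1.6, normexp -0.42), AQP4, a water channel, by 2.58 ± 0.71 and NKX2-1, the lung lineage transcription factor, by 1.6 ± 0.67 (adjusted p = 0.083, and up to 0.17 in the 8 leave-one-out fits that did not call it). The extent differed widely among SEA horses, whose ciliated list means lay between -5.12 and -0.55, the latter above the lowest control at -0.76.

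The other large falls included secreted and metabolic gene products. PTN, pleiotrophin, a heparin-binding growth factor, ranged from 0.61 to 5.96 in SEA (median 5.09) and from 6.83 to 9.49 in CTRL (median 7.12), without overlap, and fell by 3.13 ± 0.72 (adjusted p = 0.0111). VNN1, pantetheinase, which releases cysteamine, ranged from 2.94 to 7.5 in SEA (median 5.98) and from 7.54 to 9.65 in CTRL (median 9.16), with no overlap by a narrow margin, and fell by 3.08 ± 0.58 (adjusted p = 0.00499). METRN, meteorin, a secreted neurotrophic factor, also fell without overlap (-2.77 ± 0.81). SLC27A2, an acyl-CoA synthetase for very long fatty acids, fell by 2.75 ± 0.76. C2orf73, TEKT4P2, a tektin-like sequence, and C9orf9, of which the first and last are little studied, fell by 2.85 ± 0.74, 2.79 ± 0.77 and 2.75 ± 0.82.
VNN1: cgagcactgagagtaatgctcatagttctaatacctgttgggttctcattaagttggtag
CXCL17: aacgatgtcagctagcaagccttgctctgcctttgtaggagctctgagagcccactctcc

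**Figure D3:**
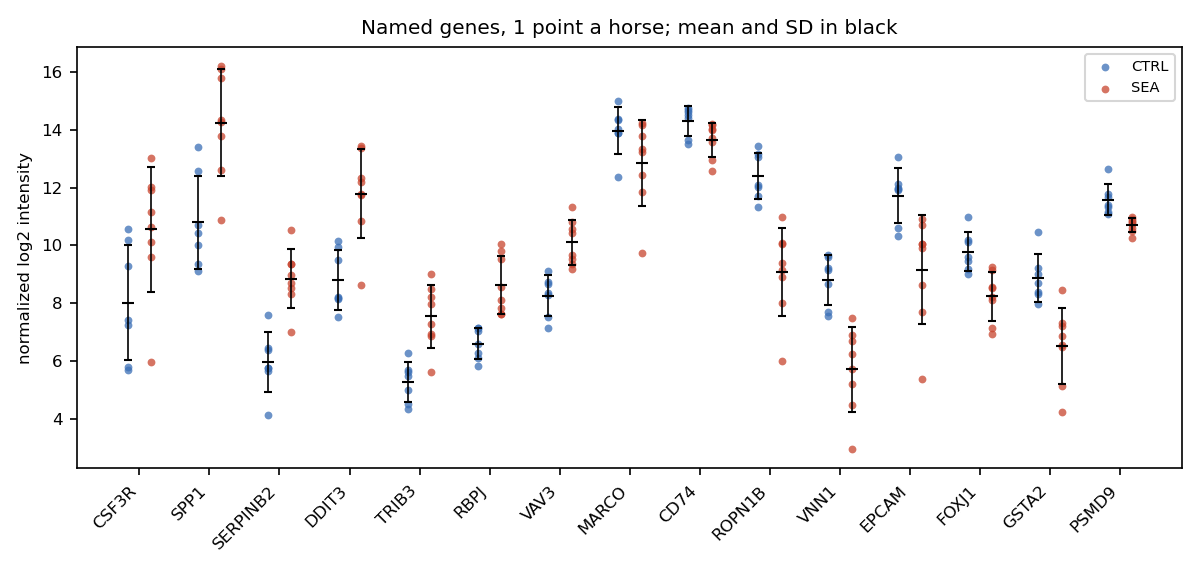
Normalized log2 intensity of 15 named genes in each horse, CTRL in blue and SEA in red, with the group mean and SD in black; levels of different probes are not comparable. VAV3 and RBPJ lie higher and ROPN1B, VNN1 and PSMD9 lower in every SEA horse than in any control, while MARCO overlaps.

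Most named transcripts of detoxifying and energy-producing enzymes fell. Of 19 tested transcripts of peroxide and glutathione defence 15 fell and none rose (median -1.04). GSTA2, a glutathione transferase, ranged from 4.22 to 8.46 in SEA (median 6.7) and from 7.96 to 10.45 in CTRL (median 8.7) and fell by 2.34 ± 0.53 (adjusted p = 0.0103). PRDX2, a peroxiredoxin, fell by 1.62 ± 0.64 (adjusted p = 0.0681). Of 11 transcripts of aldehyde and drug oxidation 9 fell and 1 rose (median -1.51, normexp -0.61). METTL7A, a membrane thiol methyltransferase, fell by 2.56 ± 0.91 and the monooxygenase FMO2 by 1.75 ± 0.68 (adjusted p = 0.0649), and AHR, the receptor that senses aromatic pollutants, rose by 0.8 ± 0.29 (adjusted p = 0.0491). PRDX2, FMO2 and AHR were not called under normexp, nor PRDX2, METTL7A and FMO2 with the replicate block. Of 15 mitochondrial metabolism transcripts 10 fell and 1 rose (median -0.7). SLC25A17, a peroxisomal cofactor carrier, and ACADL, which begins the oxidation of long fatty acids, fell by 1.13 ± 0.27 and 1.12 ± 0.29, and the coactivator PPARGC1B rose by 1.19 ± 0.37, a call lost under normexp and the rank sum test. SEA horse 1, lowest for ciliated cells, was also lowest for aldehyde and drug oxidation (-1.98 from the CTRL mean) and next to lowest for peroxide and glutathione defence (-1.75), and of the SEA horses it was nearest the controls for mitochondrial metabolism (-0.17).

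Of 5 proteasome transcripts 3 fell and 1 rose (median -0.72, normexp -0.47). PSMD9, an assembly chaperone, ranged from 10.24 to 10.97 in SEA (median 10.79) and from 11.08 to 12.64 in CTRL (median 11.4), without overlap, a fall of 0.87 ± 0.22 (adjusted p = 0.0148). The catalytic subunit PSMB5 fell by 0.83 ± 0.24, and the activator PSME4 rose by 0.97 ± 0.25 (adjusted p = 0.0149). Of 16 lysosome transcripts 10 rose and 2 fell (median 0.92). TCIRG1, a subunit of the proton pump, rose by 1.19 ± 0.35 and LAMP3, of mature dendritic cells and alveolar cells, by 1.07 ± 0.4 (adjusted p = 0.0572, not called under 7 of the other settings or in 5 leave-one-out fits), while cathepsin E (CTSE) fell by 2.17 ± 0.64 (adjusted p = 0.0246).

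**Figure D4:**
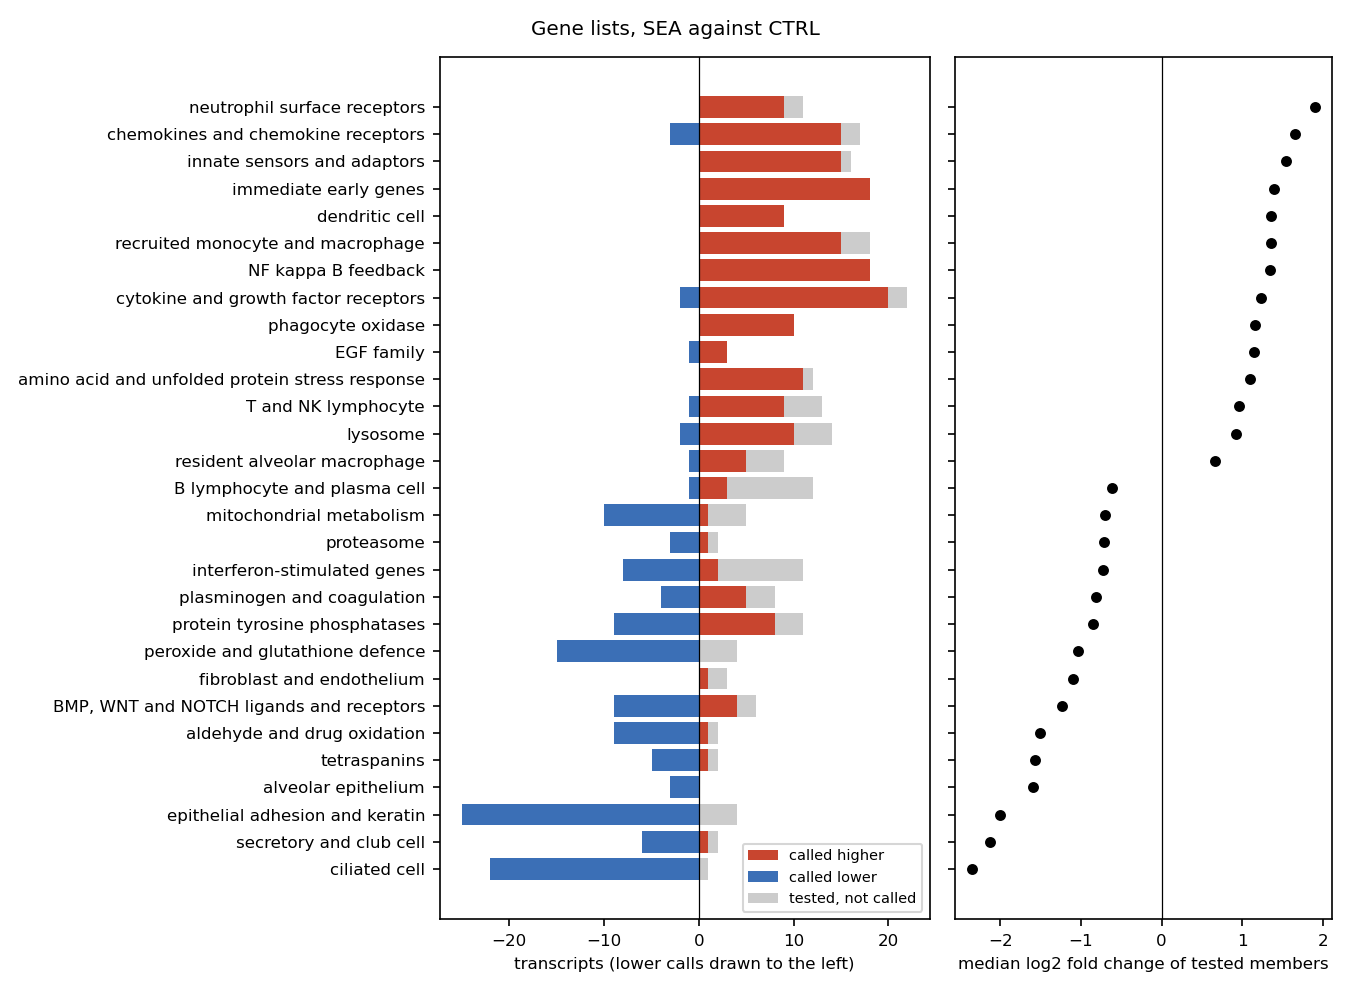
For 29 gene lists with at least 3 tested transcripts, the left panel shows the number of transcripts called higher (red), called lower (blue, drawn leftwards) or tested and not called (grey), and the right panel the median log2 fold change. Neutrophil receptors (1.9) have the highest median and ciliated cells (-2.35) the lowest, and the tyrosine phosphatases are divided. Under normexp, not drawn, chemokines and chemokine receptors (1.44) exceed neutrophil receptors (1.31).

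The protein tyrosine phosphatases split. Of 20 protein tyrosine phosphatase transcripts 8 rose and 9 fell. PTPRJ, the receptor phosphatase CD148 of leukocytes, rose by 1.58 ± 0.44 (adjusted p = 0.0189), and PTPRZ1 and PTPRF, an epithelial receptor phosphatase, fell by 2.44 ± 0.58 and 2.09 ± 0.6. PTPRZ1, near background in SEA, was not called under normexp (-0.45). The median of the list was -0.85 (normexp -0.15), which describes neither branch. With each probe counted once, 14 phosphatase probes had a median of 0.65, so this list too gives no direction. A probe is printed for a member that rose and a member that fell.
PTPRJ: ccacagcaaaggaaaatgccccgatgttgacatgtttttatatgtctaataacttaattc
PTPRF: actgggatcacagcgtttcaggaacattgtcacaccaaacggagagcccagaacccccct

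Of 7 tetraspanins, membrane organizers, 5 fell and 1 rose (median -1.57, normexp -0.53). TSPAN13 fell by 2.19 ± 0.52 (adjusted p = 0.0123) and TSPAN15, a partner of the protease ADAM10, by 1.97 ± 0.61, and TSPAN14 rose by 0.86 ± 0.35 (adjusted p = 0.0771). TSPAN15 was not called under normexp (-0.53), and TSPAN14 was not called under 6 of the other settings or in 5 leave-one-out fits. Of 15 transcripts of BMP, WNT and NOTCH signalling 9 fell and 4 rose (median -1.24, normexp -0.32). The list means of the groups overlapped, at -2.33 to 0.29 from the CTRL mean in SEA (median -0.21) and -0.78 to 0.51 in CTRL. Only SEA horses 1 (-2.33) and 3 (-1.18) lay below every control. RBPJ, the DNA-binding effector of NOTCH, ranged from 7.61 to 10.03 in SEA (median 8.33) and from 5.83 to 7.14 in CTRL (median 6.59), without overlap, and rose by 2.04 ± 0.4 (adjusted p = 0.00579). SMAD9, a BMP effector near background in SEA, fell by 2.5 ± 0.61 (normexp -0.51, not called) and the WNT receptor FZD6 by 2.39 ± 0.71 (adjusted p = 0.0241).

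Most interferon-stimulated transcripts and both of MHC class II presentation did not rise. Of 19 tested interferon-stimulated transcripts 2 rose, 8 fell and 9 were not called (median -0.73, normexp -0.42). The SEA mean of the list lay -0.23 from the CTRL mean, and the groups overlapped. Without SEA horse 1, 4 rose and 8 fell (median -0.69). IFI27L1, of the interferon-inducible IFI27 family, ranged from 13.45 to 14.72 in SEA (median 13.99) and from 14.57 to 15.3 in CTRL (median 15.04) and fell by 0.92 ± 0.22 (adjusted p = 0.0123). CXCL10, an interferon-induced T cell chemoattractant, fell by 1.03 ± 0.44 (adjusted p = 0.0907). It was not called in 10 of the 15 leave-one-out fits or under 7 of the other settings, among them the slide and replicate blocks. The RNA sensor DDX58 (RIG-I) rose by 1.14 ± 0.46 (adjusted p = 0.0788), not called in 7 leave-one-out fits or under 5 of the other settings. Both named transcripts of MHC class II presentation fell. CIITA, the master regulator, fell by 0.82 ± 0.3 (adjusted p = 0.0517, and up to 0.113 without CTRL horse 1, 4 or 6, where it was not called). CD74, the invariant chain, fell by 0.66 ± 0.28 (adjusted p = 0.0905), not called in 9 of the 15 leave-one-out fits or under 9 of the other settings.

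Gain and loss were not carried to the same degree by the same horses. Each horse was left out in turn, calls were made on the other 14, and its place on those calls was put on a scale where 0 is the CTRL mean and 1 the SEA mean. SEA horse 1 was at a median of 0.39 on the transcripts called higher and 1.69 on those called lower, whereas SEA horse 7 was at 0.99 and 0.41 and SEA horse 2 at 1.56 and 0.79. SEA horse 3 was at 0.98 and 1.69. SEA horse 5 was the nearest to the controls on both together (0.59 and 0.39). Among controls, horses 7 and 2 lay nearest SEA, at 0.44 and 0.53 and at 0.44 and 0.29, and horse 1 farthest, at -0.52 and -0.6. By this measure 47.1% to 92% of the calls made without an SEA horse placed it nearer the SEA mean, and 3.88% to 48.2% did so for a control.

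**Figure D5:**
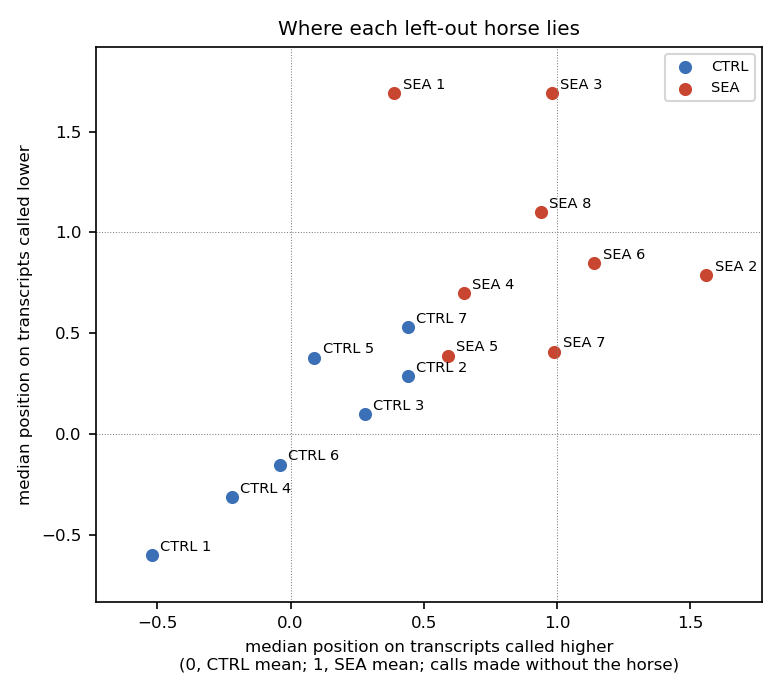
Each point is a horse placed by calls made without it, with its median position on transcripts called higher on the x axis and on those called lower on the y axis (0, CTRL mean; 1, SEA mean). The controls run from CTRL 1 (-0.52, -0.6) to CTRL 7 (0.44, 0.53), and the SEA horses spread apart, from SEA 1 (0.39, 1.69) to SEA 2 (1.56, 0.79).

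Each of the 4 slides held both groups. Within slides 2 and 3, with 3 SEA and 2 CTRL arrays each, 99.4% and 99.2% of the transcripts called higher were also higher in SEA, and 100% and 99.9% of those called lower were lower. Slide 1, with SEA horse 1 and 2 controls, gave 80% and 97.2%, and slide 4, with 1 array of each group, 88.7% and 92.7%; the calls rest on these same arrays. With slide as a block 1621 transcripts were called. The share of spots well above background averaged 75.4% ± 8.72 (SD, n = 8) in SEA and 76.6% ± 10.8 (n = 7) in CTRL (two-sided exact permutation p = 0.801).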

How the data were processed

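The deposited scanner intensity values (gProcessedSignal, background-subtracted and detrended by the authors with Feature Extraction 9.5.1.1, per the file headers) are linear and not normalized between arrays. The authors' table of normalized intensity, made with R 2.11.1 per the submitters' processing notes, served as an alternative. Here log2 intensities of 14476 non-control spots were normalized over all 25 arrays by cyclic loess (span 0.7, 3 iterations) in limma 3.58.1 (R 4.3.3, data.table, version 1.17.8), the 2 spots of each transcript were averaged, leaving out spots marked non-uniform or population outlier (108 in the 15 arrays), and 2308 transcripts below 4.5 on at least 19 arrays were left out. The 8 SEA and 7 CTRL arrays were fitted with lmFit and eBayes and adjusted by Benjamini-Hochberg over 4930 transcripts. The study used a nonparametric test, and a rank sum test was run as an alternative.

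Genes named are the 10 largest rises and falls with a symbol, up to 2 called members of each list in its main direction and 1 in the other, and 7 markers, without genes the study's text names; 5 of these genes and 1 list are not reported here. CD68, HBEGF and the further GZMB probes were chosen after their values were seen. Members and lists were chosen with earlier results of these data known. Symbols came only from the study's tables. The other 10 arrays of the series entered the normalization and filter, and 1 alternative fit. Figures used Python 3.11 and matplotlib 3.10.9. Alternatives covered normalization, background, filter, test, slide, replicate block, threshold, shared probes and each horse left out. Promoter motifs were not analysed here.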

Additional observations from a re-analysis of the deposited data

Results flagged for a closer look

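Single horses were set apart by Dixon's criterion, in which the gap from an extreme horse to its neighbour is compared with the range of its group. It was applied to 194 groups of gene values and 60 groups of list means, and chance alone sets apart about 1 in 20 groups. It singled out 11 gene values and 3 list means.

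SEA horse 1 accounts for 8 of the 11 gene values, all low. Among genes that rose, its log2 intensity was 7.09 for TG (next lowest 12.03), 4.52 for CASS4 (8.4), 4.89 for CLEC5A (7.09), 7.26 for CSRNP1 (9.71) and 7.91 for a gene not described here (11.27). Among genes that fell, it was 0.39 for SLC27A2 (next lowest 3.94), 4.1 for LTF (7.89) and 0.93 for FZD6 (4.5). These 3 values lie under the intensity floor of 4.5, where log values are least certain, and SLC27A2 and FZD6 were well above background on only 7 of 8 SEA arrays. The cause was not tested.

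SEA horse 7 had the highest TNFAIP3 value, 11.97 against 10.12 for the next SEA horse. CTRL horse 1 had the lowest MARCO value of the controls, 12.35 against 13.87. SEA horse 6 had the lowest VSIG4 value, 3.4 against 6.46, and the highest mean of the interferon-stimulated list among SEA horses, 10.34 against 9.9. CTRL horse 5 had the lowest control means of the secretory and club cell list, 7.01 against 8.06, and of the plasminogen and coagulation list, 6.38 against 7.07.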

How the results depend on the processing

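The count of 1612 called transcripts stayed within 1.5 times under every alternative but 1. After normexp background correction with an offset of 50, after which the intensity floor removed no transcript, 754 transcripts were called, 371 higher and 383 lower, from 7238 tested, and 743 of them were among the 1612. The other settings gave from 1270 (adjusted p below 0.05) to 1754 calls, with 1393 by the exact rank sum test and 1606 from the authors' table, and none of the 1612 changed sign. With identical probes averaged, an alternative chosen after seeing the data, 1469 of 4571 were called. With the replicate number as a block, 1360 transcripts were called, 745 higher and 615 lower; the numbers are not known to pair horses, the correlation of same-numbered horses ranged from -0.17 to 0.32, and not every horse was most like its own number. Leaving out each horse gave 1238 to 1706 calls, 612 to 834 higher and 626 to 886 lower. The 139 transcripts without overlap became 117 to 146 under the other normalizations, background correction, filters and the authors' table. They were not counted again with horses left out. Of 95 called named genes 77 were called whichever horse was left out. The other 18 were not called in at least 1 such fit, here with the horses left out and the highest adjusted p. They were FCAR (CTRL 1, 0.116), METTL7A (CTRL 1, 0.109), LTF (CTRL 4, 0.103), PRG3 (CTRL 4, 0.109), GZMB (CTRL 2, 0.104), AHR (CTRL 1, 4, 0.107), CIITA (CTRL 1, 4, 6, 0.113), AREG (CTRL 4, 5, 6 and SEA 2, 0.118), FMO2 (CTRL 1, 2, 4 and SEA 3, 0.139), PRDX2 (CTRL 1, 4, 6 and SEA 3, 8, 0.14), LAMP3 (CTRL 1, 2, 3 and SEA 3, 8, 0.113), TSPAN14 (CTRL 1, 4 and SEA 2, 3, 6, 0.164), CSF3R (CTRL 1, 4, 5, 6 and SEA 2, 6, 7, 0.138), DDX58 (CTRL 1, 5, 7 and SEA 2, 5, 6, 7, 0.17), NKX2-1 (CTRL 1, 2, 3, 4, 6 and SEA 2, 3, 8, 0.17), CD74 (CTRL 1, 2, 3, 4, 6 and SEA 1, 3, 4, 6, 0.169) and CXCL10 (CTRL 2, 3, 4, 6, 7 and SEA 2, 4, 5, 7, 8, 0.192), and 1 gene is not described here. None of the 97 named genes followed in this way changed sign. CD68, HBEGF, THY1, VWF and the GZMB transcripts other than ENSECAT00000018054 were not among the 97. Named genes lost under normexp numbered 33 (CSF3R, PLXNC1, CSF2RB, CD1A, CTLA4, GZMB, IGLV3-32, PRG3, BPIFB2, NKX2-1, ROBO4, GHR, DDX58, CXCL10, CIITA, CD74, PTPRZ1, TSPAN14, TSPAN15, SMAD9, AREG, TGFA, ERBB3, PRDX2, AHR, FMO2, PPARGC1B, LAMP3, ITGA2B, FCAR, CDH1 and 2 not described here), under the rank sum test 12 and under the replicate block 10. Of 30 list medians 15 moved by more than the SD among controls under normexp and 1 under scaling to the 75th percentile. With identical probes counted once, also chosen after seeing the data, those of the plasminogen and coagulation list (0.09) and the tyrosine phosphatase list (0.65) reversed. The difference in the share of spots well above background per array ranged from -3.47 to 1.02 percentage points with each horse left out and reversed without CTRL horse 3 (0.00633), 5 (0.329) or 6 (1.02), none of them past the exact permutation test.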
